A study of Homo sapiens with 12 samples.

Results

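The genes described here encode the contractile and actin machinery that defines myofibroblasts. They are 34 genes taken from a list of symbols, matched to the gene identifiers of the count table. All 34 were found among its 60671 genes, and 32 of them passed the filter on low values, which 13236 genes passed in all. The list holds 4 actins, 8 actin-binding proteins of the transgelin, calponin, caldesmon, smoothelin and leiomodin kinds, 4 tropomyosins, 5 myosin chains, the intermediate filament protein desmin, the transcription factor SRF with 3 coactivators, 6 LIM-domain adaptor proteins and 2 filamins. MYH11 and DES were the members that did not pass the filter.

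RNA was sequenced from BJ-5ta cells, a human foreskin fibroblast line immortalized with telomerase, to ask how gene expression changes when cells enter quiescence and what the PAF1C subunit LEO1 contributes. The 4 groups were wild-type cells in 10% serum (libraries 1 to 3), ΔLEO1 cells in 10% serum (4 to 6), wild-type cells after 10 days in 0.1% serum (7 to 9) and ΔLEO1 cells after the same 10 days in 0.1% serum (10 to 12). The ΔLEO1 cells, made with CRISPR/Cas9, were 1 clone, so the spread between their libraries holds no difference between clones. All cells carried the telomerase transgene and were grown in RPMI medium with fetal bovine serum, and the sources do not say whether the 3 libraries of a group came from separate cultures. If they did not, the p-values below measure technical spread only.

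A myofibroblast is a fibroblast that has built stress fibers with smooth muscle α-actin, the product of ACTA2, and it closes wounds and contracts scar tissue by pulling on the matrix. In these fibers non-muscle myosin slides along actin filaments that are covered by tropomyosin and tied to focal adhesions by filamins and LIM-domain proteins. Many of the genes are transcribed through SRF, the serum response factor, which binds a DNA element called the CArG box together with the coactivators MRTFA, MRTFB and myocardin. Unpolymerized actin binds the MRTF proteins and keeps them out of the nucleus, and serum, through actin polymerization, releases them.

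The CArG boxes of the members are shown first because they are the sequence feature that links the group to SRF. RefSeq promoter sequences, from 250 bases before to 50 bases after the gene start on GRCh38.p14, were present for 28 of the 34 members. The motif searched was CC, then 6 letters each of which is A or T, then GG, a pattern whose reverse complement has the same form, so both strands were covered. It was found in 7 of the 28 promoters (25.0%), against 351 of 27305 promoters of all genes (1.29%) and 105 of 10210 promoters of the tested genes (1.03%). The windows below hold the boxes in capitals with their flanking bases, written along the strand of the gene.
ACTG2: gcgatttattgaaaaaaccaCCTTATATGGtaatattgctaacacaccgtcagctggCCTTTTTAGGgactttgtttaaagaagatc
ACTG1: cccggctttcggaaagatcgCCATATATGG
SRF: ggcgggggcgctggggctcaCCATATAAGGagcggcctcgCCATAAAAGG
CNN2: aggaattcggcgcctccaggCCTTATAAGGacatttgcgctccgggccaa
TPM4: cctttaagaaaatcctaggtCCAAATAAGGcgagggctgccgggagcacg
FLNA: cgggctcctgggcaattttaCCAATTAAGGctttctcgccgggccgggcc
FHL2: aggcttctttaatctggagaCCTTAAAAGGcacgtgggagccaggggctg

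The ACTG2 window lies at chr2:73892878-73892964 on the plus strand, from -130 to -44 relative to the gene start, and holds a pair of boxes. The SRF window, at chr6:43171219-43171268 on the plus strand (-50 to -1), also holds 2, so the gene for the factor carries in its own promoter the element that the factor binds. The ACTG1 window is at chr17:81512884-81512913 on the minus strand (-114 to -85). The other windows are CNN2 at chr19:1026499-1026548, plus (-109 to -60), TPM4 at chr19:16067345-16067394, plus (-193 to -144), FLNA at chrX:154374699-154374748, minus (-114 to -65), and FHL2 at chr2:105438585-105438634, minus (-121 to -72). In the GENCODE annotation the ACTG2 and TPM4 windows are intronic to longer models of the same genes, the ACTG1 window reaches into a 5′ exon of ACTG1, which covers most of its box, the FLNA window overlaps an exon of the opposite-strand gene AC245140.3, and the other 3 lie in no annotated gene. Promoters of ACTA2 and CNN1 held no exact box in this window. ACTB, TAGLN, MYL9, MYH11, DES and MYOCD had no entry. A match is a description of letters and does not show binding.

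Levels below are given as reads per 1000 ERCC reads. ERCC transcripts are synthetic standards mixed into each sample's RNA, so this scale follows the amount of a transcript relative to the added RNA. The sources do not tie the added amount to a number of cells, and in bulk RNA fewer cells and less RNA per cell cannot be told apart. CPM, a gene's count scaled to the same total of gene counts in every library, gives its part of the library instead, and TPM also corrects for exon length so that genes can be compared with each other. A log2 fold change of 1 is a doubling. A gene was called where the edgeR quasi-likelihood test gave an adjusted p under 0.05 over all tested genes.

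LEO1 itself, the targeted gene, was low in every ΔLEO1 library. Its level was 2.94, 2.51 and 1.62 reads per 1000 ERCC reads in the wild-type libraries in 10% serum and 1.39, 1.84 and 0.759 in those in 0.1% serum. The ΔLEO1 libraries held 0.216, 0.0926 and 0.131 in 10% serum against 0.0348, 0.0433 and 0.126 in 0.1% serum, so the genotypes did not overlap.

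Libraries held 26240632 to 45315560 gene counts, and ERCC reads made up 0.625% to 3.24% of all counts. Gene reads per 1000 ERCC reads had group medians of 105060 (10% serum) and 46819 (0.1% serum) for wild-type cells, and of 116532 and 52675 for ΔLEO1 cells. In each group the highest-numbered library (3, 6, 9 or 12) stood apart from the other pair: log2 CPM differed by 0.405 to 0.526 (root mean square) in pairs with it and by 0.190 to 0.280 in pairs without it. All 13 fibroblast markers on a fixed list were over 1 CPM in all 12 libraries. Their summed TPM was 36846 to 43850 (10% serum) and 50840 to 56091 (0.1% serum) in wild-type cells. In ΔLEO1 cells it was 35470 to 39526 and 36650 to 42105, so the genotypes did not overlap in 0.1% serum. Of the 13, 2 were called lower in ΔLEO1 cells in 10% serum, where 4.20% of all tested genes were, none was called higher, and none was called in 0.1% serum. Under scaling on the genes, described below, 5 were lower and 1 higher in 10% serum, where 21.4% and 17.9% of all genes were. In 0.1% serum 6 were lower and 1 higher, where 17.3% and 15.1% were. Of 16 striated muscle markers 12 stayed under 1 CPM in all libraries, and MYOD1, MYOG, PAX7 and MYH6 had no count. ACTC1, cardiac α-actin, reached 138 CPM and MYH3 17.8 CPM, both in library 6, and TNNT1 14.1 CPM in library 3. The summed TPM of that list was 22.1 to 38.8 and 22.2 to 24.6 in wild-type cells (10% and 0.1% serum) and 29.2 to 150 and 19.0 to 21.2 in ΔLEO1 cells, and 2 of its 3 tested genes were called higher in ΔLEO1 cells in 10% serum. In 0.1% serum 1 was called higher. Under scaling on the genes 1 of the 3 was called higher and 1 lower in both sera. Of 7 pericyte markers 4 were over 1 CPM in all libraries, with a summed TPM of 278 to 330 and 176 to 197 in wild-type and 199 to 307 and 129 to 135 in ΔLEO1 cells. Of 11 smooth muscle markers, 7 of which are members described here, 4 were over 1 CPM in all 12 libraries and CASQ2 had no count. Their summed TPM in wild-type cells was 334 to 547 (10% serum) and 207 to 222 (0.1% serum), and in ΔLEO1 cells 407 to 835 and 339 to 455. The sum hides opposite directions. Of 6 tested smooth muscle markers 1, ACTG2, was called higher in ΔLEO1 cells in both sera and 1, SYNM (0.115 to 32.9 CPM), was called lower. Of 8 epithelial markers, 2 keratins were over 1 CPM in all libraries while EPCAM stayed at or under 0.229 CPM. The summed TPM of the 8 was 408 to 595 and 162 to 178 in wild-type cells and 1084 to 1491 and 583 to 789 in ΔLEO1 cells. KRT18 was highest in library 6 (1113 CPM) and KRT8 in library 8 (79.7 CPM). Of the 2 tested, 1 was called higher in ΔLEO1 cells in both sera. Scaled on the genes, as described below, 1 was called higher and 1 lower in both. Summed endothelial and blood markers reached at most 4.31 and 5.68 TPM. The part of the highest-numbered libraries and of these markers in the results below was not tested beyond the values given beside them.

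Together the 34 genes took 3.28% to 4.76% of all gene counts when wild-type cells were in 10% serum and 2.05% to 2.11% when they were in 0.1%. In ΔLEO1 cells they took 3.96% to 5.56% and 3.07% to 3.18%. Per exon length the cytoplasmic actins led in every group. ACTB, β-actin, had a mean of 8488 TPM ± 2617 (SD, n = 3) and ACTG1, γ-actin, of 6060 TPM ± 1168 in wild-type cells in 10% serum. FLNA at 3156 TPM, TPM2 at 2174 TPM and MYL9 at 2132 TPM followed, while ACTA2 stood at 782 TPM and ACTG2, the enteric smooth muscle γ-actin, at 41.1 TPM. The range across the tested members was wide, with MYOCD at 10.0 TPM and MRTFB at 7.21 TPM at its lower end.

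**Figure D1:**
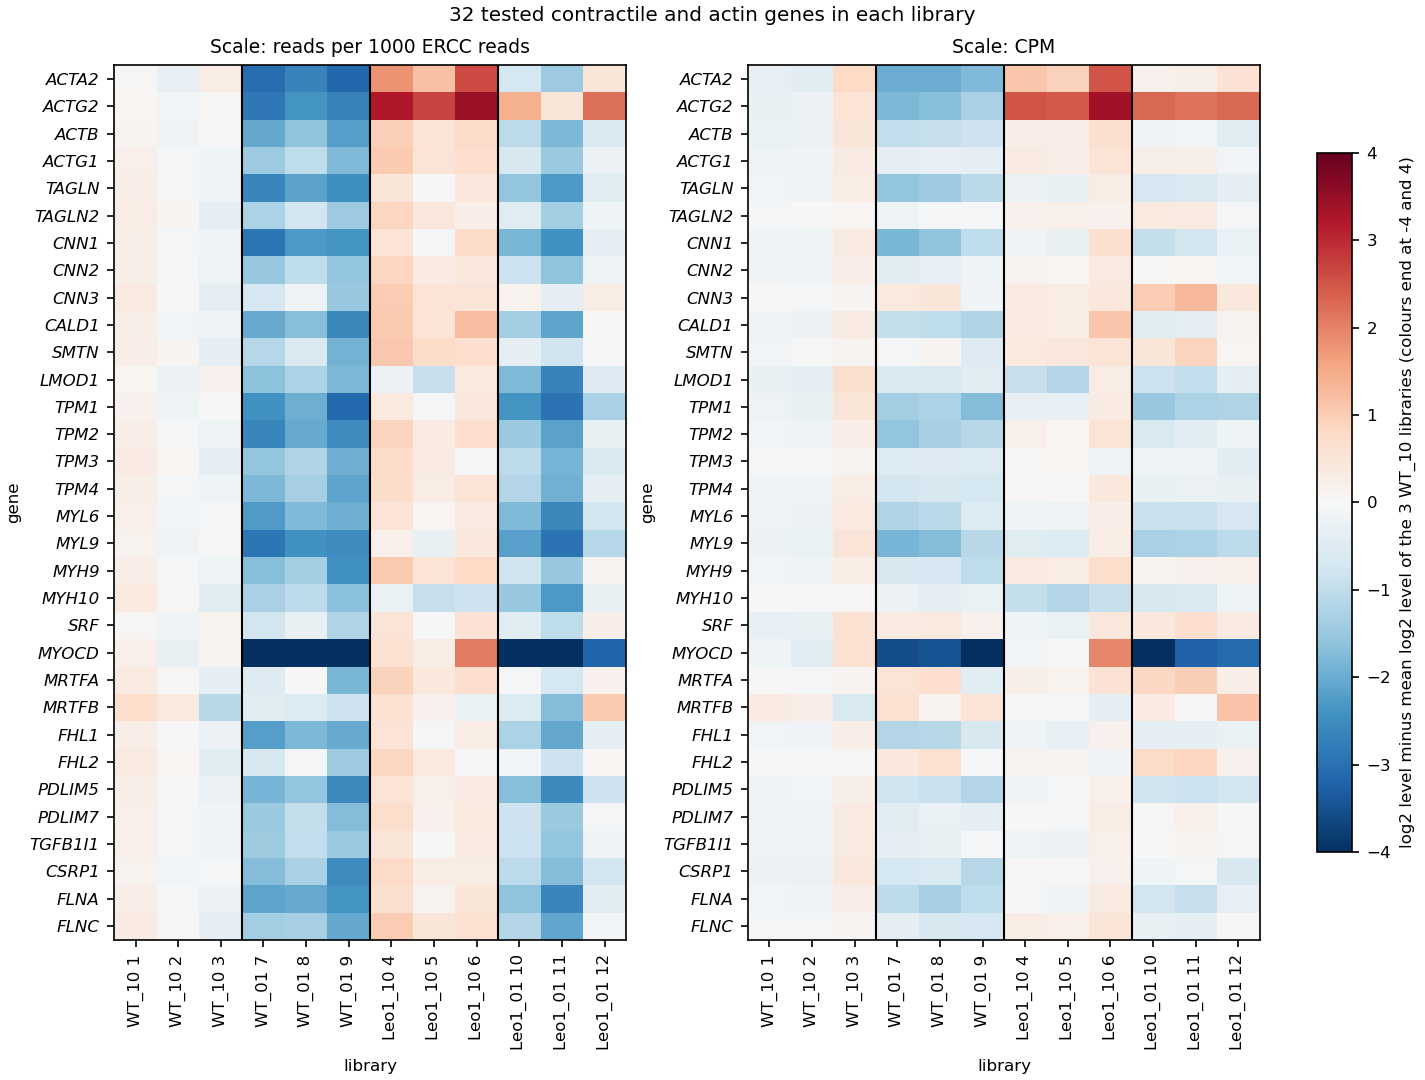
Level of each of the 32 tested members in each of the 12 libraries, as log2 minus the mean log2 of the 3 wild-type libraries in 10% serum (WT_10), on the scale of reads per 1000 ERCC reads (left) and of CPM (right). Colours end at -4 and 4. On the ERCC scale most genes are blue in both 0.1% serum groups (WT_01 and Leo1_01). On the CPM scale CNN3, SRF, MRTFA, MRTFB and FHL2 have a higher mean in WT_01 than in WT_10. In Leo1_01 further genes have a higher mean than in WT_10, among them SMTN, TAGLN2, ACTG1 and MYH9. ACTA2 and ACTG2 lie above the WT_10 reference in the ΔLEO1 groups on the CPM scale. For ACTA2 in Leo1_01 the difference is slight, at 543 to 711 CPM against 349 to 821 CPM in WT_10.

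The first comparison asked how the genes responded when wild-type cells went from 10% to 0.1% serum. Of the 32 tested members 26 were called lower and none higher, where 27.0% of all tested genes were called lower and 0.831% higher. All 4 actins, all 4 tropomyosins, the 4 tested myosin chains and both filamins fell, as did 6 of 8 actin-binding proteins, 5 of 6 LIM-domain adaptors and 1 of 4 genes of the SRF group. The median log2 fold change of the members was -1.74 and that of all tested genes -0.97, and 27 of 32 members lay below the median gene. Scaled on the genes themselves by TMM, which sets the median gene near 0, 22 members were called lower and none higher, with 16.1% and 15.5% of all genes called, while CNN3, SRF, MRTFA, MRTFB and FHL2 turned to positive values that did not pass.

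Among the actins ACTA2 fell the most. It measured 47.9, 36.7 and 57.0 reads per 1000 ERCC reads in 10% serum and 5.59, 7.32 and 5.29 in 0.1% serum, without overlap. Its log2 fold change of -2.96 passed the test (SE 0.49, adjusted p = 1.2e-07, edgeR quasi-likelihood test). ACTG2 went from 3.42, 2.99 and 3.37 to 0.452, 0.618 and 0.512, a log2 fold change of -2.63 (SE 0.50). All 3 libraries in 0.1% serum were below all 3 in 10% serum for both genes. ACTB fell from 676, 570 and 630 to 151, 204 and 134 (log2 fold change -1.94, SE 0.45). ACTG1 fell from 444, 374 and 345 to 141, 189 and 114 (-1.39, SE 0.44). The order of the 4 falls thus ran from the smooth muscle actins to the cytoplasmic ones, although the difference between the genes was not tested.

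Of the actin-binding proteins, TAGLN (transgelin or SM22α, which binds actin bundles) and CNN1 (calponin, which inhibits the myosin ATPase in smooth muscle) fell most. TAGLN measured 179, 143 and 132 reads per 1000 ERCC reads in 10% serum and 24.4, 33.7 and 27.3 in 0.1% serum (log2 fold change -2.41, SE 0.47). CNN1 measured 7.03, 5.66 and 5.28 and then 0.797, 1.21 and 1.12 (-2.52, SE 0.51). The groups did not overlap for either gene. Their widely expressed paralogs fell less on this scale, with TAGLN2 at -1.15 and CNN2 at -1.36, and CNN3 at -0.73 did not pass (adjusted p = 0.17, edgeR quasi-likelihood test). CALD1, caldesmon, which holds tropomyosin on the filament, fell by 2.06, and LMOD1, leiomodin, which nucleates actin filaments in smooth muscle, fell by 1.56. SMTN, smoothelin, had -1.14 and did not pass (adjusted p = 0.056 in the same test).

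The filament and motor genes fell as well. The tropomyosins had log2 fold changes of -2.43 for TPM1, -2.37 for TPM2, -1.71 for TPM4 and -1.57 for TPM3. MYL9, the regulatory light chain whose phosphorylation switches myosin on, fell by 2.60, MYL6, the essential light chain, by 1.99, MYH9, the heavy chain of non-muscle myosin IIA, by 1.78 and MYH10, that of IIB, by 1.35. The filamins, which crosslink actin and anchor it to integrins, fell by 2.17 (FLNA) and 1.59 (FLNC). Of the LIM-domain adaptors, FHL1 fell by 2.02, PDLIM5 by 1.96, CSRP1 by 1.78, PDLIM7 by 1.36 and TGFB1I1, the focal adhesion protein Hic-5, by 1.28. FHL2, a coactivator and focal adhesion protein, had -0.66 and did not pass (adjusted p = 0.217, edgeR quasi-likelihood test).

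The SRF group split. MYOCD, myocardin, the coactivator typical of cardiac and smooth muscle, showed the largest difference of the tested members. Its level was 2.09, 1.48 and 1.97 reads per 1000 ERCC reads in 10% serum and 0.0751, 0.103 and 0.0178 in 0.1% serum. These values rest on 605, 551 and 1114 counts and on 54, 45 and 16 counts, and the fitted difference was -4.84 on the log2 scale (SE 0.59, adjusted p = 8.93e-14, edgeR quasi-likelihood test). SRF measured 8.22, 7.0 and 8.75 and then 4.82, 6.45 and 3.44. Its libraries did not overlap either, but the difference of -0.70 did not pass (adjusted p = 0.194 in the same test). MRTFA went from 9.09, 7.27 and 5.44 to 5.0, 7.06 and 2.01 and MRTFB from 4.01, 3.22 and 1.15 to 1.80, 1.67 and 1.37. Both overlapped between the groups, and neither their -0.63 nor their -0.79 passed the test. Of the 7 members with a CArG box in the promoter window, ACTG2, ACTG1, CNN2, TPM4 and FLNA were called lower, and SRF and FHL2 were not. As 26 of the 32 tested members were called lower, this does not set the members with a box apart from the rest.

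Without overlap between the 3 and 3 libraries, 28 members were lower on the ERCC scale, where 53.4% of all genes were, and none was higher, where 1.16% of all genes were. On the CPM scale 24 members were lower, where 18.6% of all genes were, and none was higher, where 31.5% were. Without the highest-numbered library of each group 28 members were called lower, where 8186 of 12911 genes were. The count of 26 fell to 16 without library 9, where 981 of 13139 genes were called lower. It fell to 17 without library 1 (879 of 13183 genes) and without library 7 (743 of 13156 genes). No member was called higher in any of these fits. TMM without the highest-numbered libraries called 26 members lower and 4 higher, where 30.0% and 27.1% of all genes were called.

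**Figure D2:**
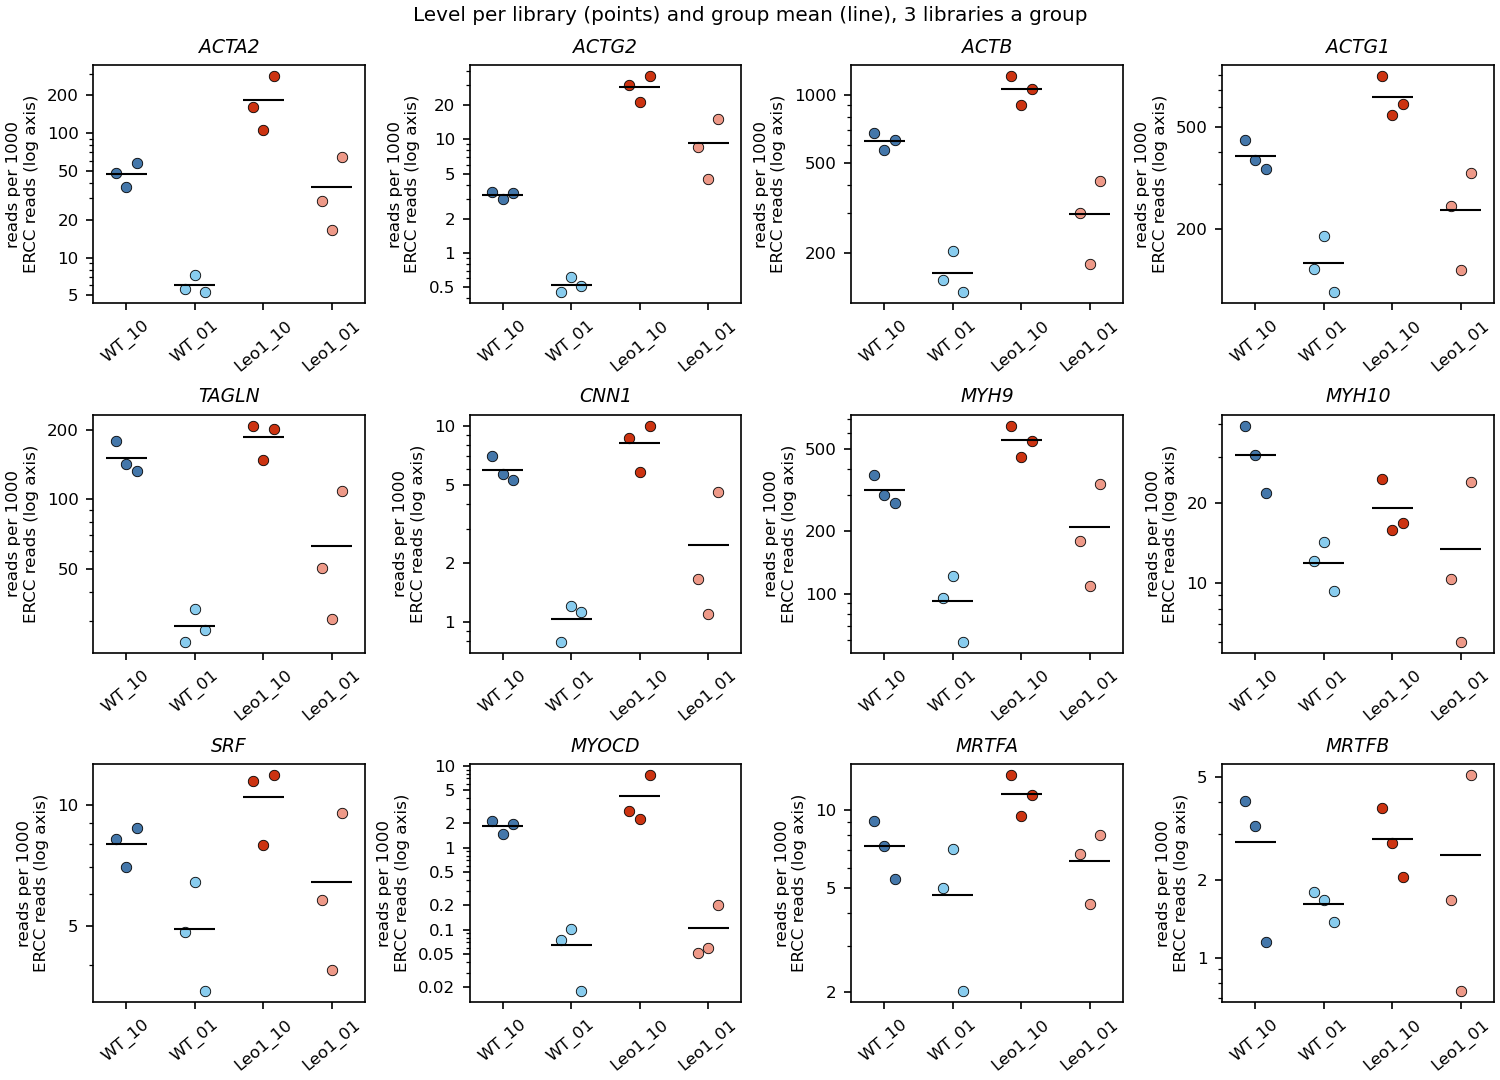
Reads per 1000 ERCC reads (log axis) of 12 members in each library (points, 3 a group) with the group mean (line). MYOCD drops from between 1.48 and 2.09 to at most 0.103 in wild-type cells (WT_10 to WT_01), and the ACTA2 and ACTG2 points of the ΔLEO1 groups (Leo1_10, Leo1_01) lie above the wild-type points of the same serum.

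The ΔLEO1 cells were asked the same question, and the genes fell in them too. Of the 32 members 25 were called lower and none higher after the change to 0.1% serum, where 36.4% of all tested genes were called lower and 0.793% higher. The median of the members was -1.50 and that of all genes -1.05. The actins (4 of 4), tropomyosins (4 of 4), filamins (2 of 2), actin-binding proteins (7 of 8) and tested myosin chains (3 of 4) were called lower, with 4 of 6 LIM-domain adaptors and MYOCD alone of the SRF group. The members not called were CNN3, MYH10, SRF, MRTFA, MRTFB, FHL2 and TGFB1I1. Under TMM scaling on the genes the count was 13 lower and 1 higher, MYH10, with 12.1% and 15.5% of all genes called. SMTN and TAGLN2 then turned from negative to values at 0.01 and 0.00.

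MYOCD again had the largest difference of the tested members, from 2.78, 2.23 and 7.70 reads per 1000 ERCC reads to 0.0515, 0.0598 and 0.203 (log2 fold change -5.37, SE 0.60, adjusted p = 1.13e-15, edgeR quasi-likelihood test). Its counts in 0.1% serum were 34, 65 and 79. ACTA2 went from 162, 105 and 286 to 28.6, 16.8 and 64.5, a log2 fold change of -2.33 (SE 0.47). ACTG2 went from 30.1, 21.2 and 36.0 to 8.63, 4.51 and 14.9 (-1.64, SE 0.48). For these 3 genes all libraries in 0.1% serum lay below all in 10% serum. ACTB fell from 1207, 903 and 1059 to 301, 179 and 416 (-1.82, SE 0.44) and ACTG1 from 790, 555 and 614 to 246, 139 and 331 (-1.45, SE 0.44). TAGLN fell from 208, 147 and 201 to 50.8, 30.5 and 108, and CNN1 from 8.68, 5.81 and 10.0 to 1.66, 1.11 and 4.62. Library 12 was the highest of its group for every gene named here.

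SRF measured 11.5, 7.94 and 11.8 and then 5.79, 3.89 and 9.56, MRTFA 13.6, 9.46 and 11.5 and then 6.77, 4.36 and 7.97, and MRTFB 3.79, 2.77 and 2.06 and then 1.67, 0.741 and 5.08. Only MRTFA of these was without overlap, and its -0.85 did not pass (adjusted p = 0.111, edgeR quasi-likelihood test). Library 12 held 90713 gene reads per 1000 ERCC reads, against 52675 and 29951 in the other 2 libraries of its group. Without libraries 3, 6, 9 and 12 all 32 members were called lower, where 11873 of 12911 genes were, with the median of all genes at -1.72. The count of 25 fell to 5 without library 10 (ACTA2, ACTB, TPM1, MYL9 and MYOCD), where 406 of 13193 genes were called lower. It fell to 11 without library 4 (545 of 13178 genes) and to 14 without library 11 (816 of 13172 genes). On the ERCC scale 27 members did not overlap and were lower, where 50.9% of all genes were, and none was higher, where 0.846% were. On the CPM scale 18 were lower (15.8% of all genes) and CNN3, MYH10, MRTFB and FHL2 higher (27.3%). TMM without the highest-numbered libraries called 18 members lower and 7 higher, where 27.7% and 28.3% of all genes were called.

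**Figure D3:**
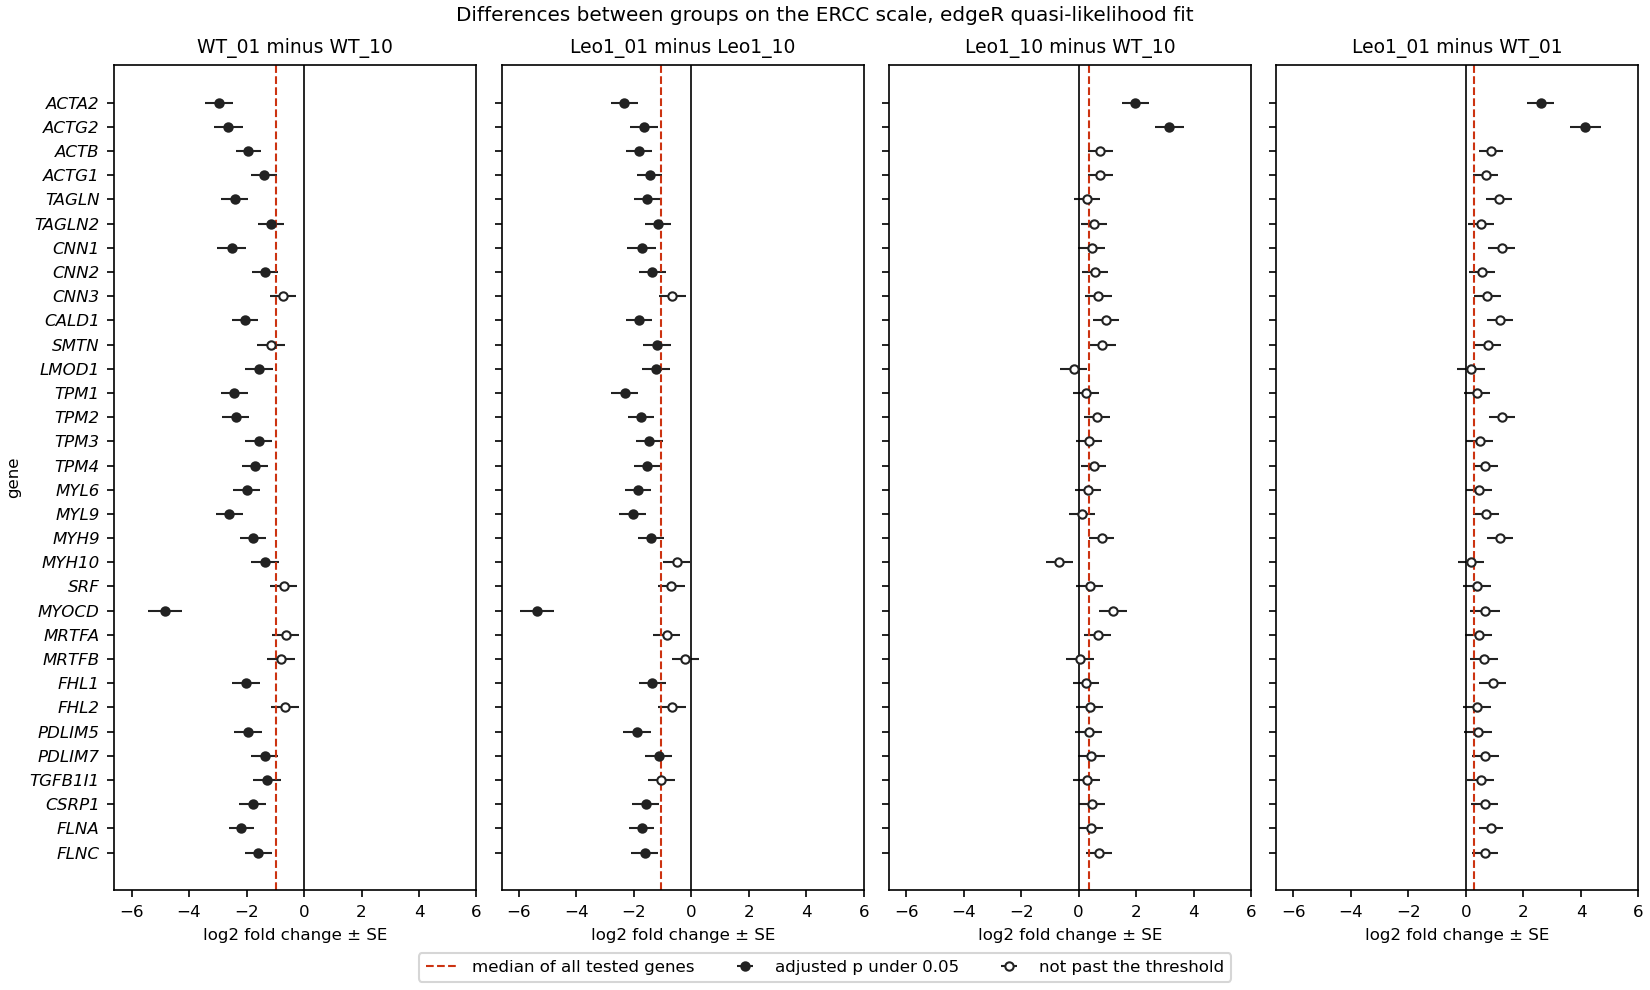
Log2 fold change ± SE of the 32 tested members in the 4 comparisons (edgeR quasi-likelihood fit, ERCC scale); filled points have an adjusted p under 0.05 and the dashed line is the median over all tested genes. For the knockout comparisons (the right pair of panels) only ACTA2 and ACTG2 are filled, at 1.97 and 3.16 in 10% serum and 2.59 and 4.15 in 0.1% serum.

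The next comparisons set ΔLEO1 cells against wild-type cells in the same serum, to find how the group differed between them. All ΔLEO1 libraries came from the same clone, so the loss of LEO1 and other traits of that clone cannot be told apart. Which of them underlies the differences between genotypes was not tested. ACTA2 and ACTG2, the smooth muscle actins, were called higher in ΔLEO1 cells in both sera, and no member was called lower. In 10% serum 3.81% of all tested genes were called higher and 4.20% lower, and in 0.1% serum 3.49% and 3.41%. These comparisons use the same libraries as the serum comparisons above, so the values are not independent of them.

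ACTG2 had the larger difference. Its level in 10% serum was 3.42, 2.99 and 3.37 reads per 1000 ERCC reads in wild-type and 30.1, 21.2 and 36.0 in ΔLEO1 libraries, 8.92-fold higher (log2 fold change 3.16, SE 0.51, adjusted p = 3.69e-08, edgeR quasi-likelihood test). In 0.1% serum it was 0.452, 0.618 and 0.512 against 8.63, 4.51 and 14.9, 17.7-fold higher (4.15, SE 0.54, adjusted p = 1.63e-12 in the same test). Every ΔLEO1 library in 0.1% serum thus held more ACTG2 than every wild-type library in 10% serum. As a part of the library it was 27.1 to 48.5 CPM in wild-type cells in 10% serum, 9.65 to 13.7 CPM in 0.1% serum, 182 to 341 CPM in ΔLEO1 cells in 10% serum and 151 to 165 CPM in 0.1% serum. None of the 58-base stretches of the ACTG2 transcripts was found in a transcript of another gene, so reads of the other actins would not be counted for it when they match along their whole length.

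ACTA2 was 3.91-fold higher in 10% serum, a log2 difference of 1.97 (SE 0.47, adjusted p = 0.000637, edgeR quasi-likelihood test), and 6.04-fold higher in 0.1% serum, a log2 difference of 2.59 (SE 0.48, adjusted p = 3.03e-06). Its levels, given above, did not overlap between the genotypes in either serum. Library 6 was the highest with 286, and without it the difference in 10% serum was 1.52 and the adjusted p 0.0568, so that ACTG2 alone remained called. Without the highest-numbered library of every group the differences were 1.66 and 1.81 for ACTA2 (adjusted p = 0.00237 and 0.000673, edgeR quasi-likelihood test) and 3.0 and 3.62 for ACTG2. Under TMM scaling on the genes they were 1.58 and 2.26 for ACTA2 and 2.77 and 3.85 for ACTG2, all called. ACTA2 shares 24.1% of its 58-base stretches with other transcripts, mainly the antisense gene ACTA2-AS1 and the neighbour FAS, whose exons overlap it over 896 bases on the opposite strand. The strand setting of the counting is not given in the sources used here, so part of these reads may belong to those genes.

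The cytoplasmic actins were higher in every ΔLEO1 library than in every wild-type library in 10% serum without passing the test. ACTB had a difference of 0.76 (adjusted p = 0.413, edgeR quasi-likelihood test) and ACTG1 of 0.75. In 0.1% serum they had 0.87 and 0.69 and the libraries overlapped. Of all members 15 were higher without overlap in 10% serum, and none was lower, where 23.7% and 6.94% of all genes were, and the median of the members was 0.45 against 0.35 for all genes. On the CPM scale ACTA2, ACTG2, TAGLN2, CNN3, SMTN, MRTFA and FLNC were higher without overlap and MYH10 was lower, where 29.8% and 29.6% of all genes were. TMM scaling called ACTA2 and ACTG2 higher, where 17.9% of all genes were, and TMM without the highest-numbered libraries called 15 members higher and 4 lower, where 30.3% and 31.9% of all genes were.

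In 0.1% serum the rest of the group lay above the median gene but did not pass on the ERCC scale. All 32 differences were positive, with a median of 0.67 against 0.27 for all genes, and 30 of 32 members lay above the median gene. After ACTA2 and ACTG2 the differences were largest for TPM2 (1.26), CNN1 (1.24), CALD1 (1.19), MYH9 (1.19) and TAGLN (1.15), with adjusted p from 0.0741 to 0.128 in the edgeR quasi-likelihood test. Only ACTA2 and ACTG2 were higher without overlap, where 4.64% of all genes were, and no member was lower, where 4.83% were. Under TMM scaling on the genes 14 members were called higher and none lower, where 15.1% and 17.3% of all genes were. Besides the smooth muscle actins they were ACTB, ACTG1, TAGLN, CNN1, CNN3, CALD1, SMTN, TPM2, TPM4, MYH9, FHL1 and PDLIM7, with log2 fold changes from 0.45 for TPM4 to 0.95 for MYH9. Without overlap on the CPM scale 16 members were higher, where 19.7% of all genes were, and none was lower, where 21.8% were. Without library 11, the lowest of its group, 10 members were called higher on the ERCC scale, where 1117 of 13172 genes were. Without the highest-numbered library of each group only the same pair, ACTA2 and ACTG2, was called, where 292 of 12911 genes were called higher. The positive direction of the group rested in part on library 12. Without it 24 of 32 differences were positive, with a median of 0.22 against -0.27 for all genes. Without the highest-numbered library of each group 19 were positive and 13 negative, with a median of 0.06 against -0.42 for all genes. TMM without those libraries called 25 members higher and 2 lower, where 30.4% and 29.0% of all genes were called.

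MYH10 moved differently from its paralog MYH9. MYH9 measured 373, 300 and 273 reads per 1000 ERCC reads in wild-type and 649, 455 and 546 in ΔLEO1 libraries in 10% serum. MYH10 measured 39.4, 30.5 and 21.9 against 24.8, 15.9 and 16.8, and its difference of -0.68 did not pass (adjusted p = 0.528, edgeR quasi-likelihood test). As CPM it was 312, 291 and 315 against 157, 136 and 160, without overlap, and under TMM scaling on the genes its difference of -1.03 was called (adjusted p = 2.37e-05), the only member called lower, where 21.4% of all genes were. In 0.1% serum MYH10 was 260, 238 and 252 CPM in wild-type and 196, 201 and 266 CPM in ΔLEO1 cells, which overlapped. The myosins share few 58-base stretches with other genes, 0.417% for MYH9 and 0.185% for MYH10.

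Among the SRF group no member was called between genotypes in the fit of all 12 libraries. MYOCD was higher in 10% serum in all 3 ΔLEO1 libraries than in any wild-type library, but with a difference of 1.20 that did not pass (adjusted p = 0.148, edgeR quasi-likelihood test) and that rests in part on library 6, where it was 7.70. Without library 6 it was 0.46, and without the highest-numbered libraries 0.49. It was called in a fit of only these 6 libraries (1.21, adjusted p = 0.0225) and without library 11 or 12 (1.2 in both, adjusted p = 0.0353 and 0.018, all edgeR quasi-likelihood tests). SRF had 0.38 and 0.39, MRTFA 0.66 and 0.44 and MRTFB 0.04 and 0.63 in 10% and 0.1% serum. TAGLN and CNN1 differed by 0.29 and 0.45 in 10% serum, with overlapping libraries, and under TMM scaling TAGLN turned to -0.07.

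The test of whether the response to low serum differed between genotypes called no member on the ERCC scale, where 0.113% of all tested genes were called higher and 0.0604% lower. No member had an unadjusted p under 0.05, and the likelihood ratio test and DESeq2 also called none. The differences ran up to 0.99 for ACTG2 (SE 0.67) and 0.85 for MYH10 (SE 0.66), and the standard errors of this test leave differences of this size undetectable. Under TMM scaling MYH10 alone was called, with 0.86 (SE 0.15, adjusted p = 0.0172, edgeR quasi-likelihood test), where 1.55% of all genes were called higher and 0.453% lower. TMM without the highest-numbered libraries called 20 members higher and none lower, where 15.7% and 8.66% of all genes were called.

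The 2 members under the filter had few reads. MYH11, the smooth muscle myosin heavy chain, had 7, 8 and 3 counts in wild-type libraries in 10% serum and 6, 4 and 1 in 0.1% serum. In ΔLEO1 libraries it had 40, 36 and 392 counts and 10, 20 and 27 counts, more than every wild-type library of the same serum, and library 6 held most of them. Without a filter edgeR called it higher in ΔLEO1 cells, with an adjusted p of 5.55e-10 in 10% serum and 0.0129 in 0.1% serum (quasi-likelihood test), and 5.68% of its 58-base stretches occur in other genes, NDE1 first among them. DES, desmin, had 6, 7 and 13 counts in wild-type and 2, 8 and 14 in ΔLEO1 cells in 10% serum. In 0.1% serum it had no count in any wild-type library, which allows up to 3 counts in each, and 0, 1 and 1 in the ΔLEO1 libraries. Without a filter edgeR called DES lower in 0.1% serum in wild-type cells (adjusted p = 7.02e-05) and in ΔLEO1 cells (adjusted p = 0.00307), and MYH11 lower in ΔLEO1 cells (adjusted p = 9.67e-07, all quasi-likelihood tests).

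Shares of closely related genes within a library do not depend on the scaling between libraries, so they were compared next. Counts were divided by exon length and expressed as a percentage of the family. They were tested by exact two-sided permutation tests, 30 in all, adjusted together. With 3 libraries against 3 the smallest p is 0.1, so that only the tests over both sera or both genotypes, with a smallest p of 0.005, could pass.

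ACTA2 made up a larger share of the 4 actins in ΔLEO1 cells. It was 4.50%, 4.11% and 6.10% in wild-type cells in 10% serum and 2.04%, 1.99% and 2.27% in 0.1% serum. The ΔLEO1 libraries had 8.11%, 7.32% and 15.7% in 10% serum, then 5.35%, 5.43% and 8.52% in 0.1% serum. Over both sera ΔLEO1 cells were 4.91 percentage points higher (exact permutation p = 0.005, adjusted p = 0.025). Over both genotypes the difference of 0.1% minus 10% serum was -3.38 points, which did not pass (exact permutation p = 0.015, adjusted p = 0.0563). The genotype difference no longer passed without library 1 (4.81), 2 (4.71), 3 (5.21) or 6 (3.57), with adjusted p from 0.05 to 0.0643 in the exact permutation test, and the serum difference passed without library 5 (-4.14, adjusted p = 0.0429). The ACTG2 share, singled out after its values were seen and given without a test, was 0.265% ± 0.0155 (SD, n = 3) and 0.144% ± 0.0242 in wild-type cells in 10% and 0.1% serum and 1.29% ± 0.219 and 1.31% ± 0.207 in ΔLEO1 cells. ACTB had the largest share in 10% serum in both genotypes (54.9% and 51.2%), while in 0.1% serum ACTG1 was at 50.3% in wild-type and 44.6% in ΔLEO1 cells against 47.5% and 47.7% for ACTB.

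MYH10 made up a smaller share of MYH9 plus MYH10 in ΔLEO1 cells. It was 9.55%, 9.24% and 7.43% in wild-type cells in 10% serum and 11.3%, 10.5% and 13.8% in 0.1% serum. In ΔLEO1 cells it was 3.68%, 3.37% and 2.99% and then 5.41%, 5.25% and 6.67%, so that the genotypes did not overlap across the sera. Over both sera the share was lower by 5.75 percentage points on average, as the ΔLEO1 mean was 4.56% and the wild-type mean 10.3% (exact permutation p = 0.005, adjusted p = 0.025). Over both genotypes it was 2.78 points higher in 0.1% serum (exact permutation p = 0.005, adjusted p = 0.025). Without library 1, 2 or 3 the genotype difference was -5.54, -5.62 or -6.07 and the serum difference 2.99, 2.91 or 2.46, and neither passed (adjusted p = 0.05, 0.05 and 0.0643 for both, exact permutation test). The MYH10 share was thus lower in ΔLEO1 cells and higher in low serum in each of these versions.

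In ΔLEO1 cells TPM2 made up more of the tropomyosins and TPM1 less. TPM2 made up 57.0% ± 0.786 (SD, n = 3) of the 4 tropomyosins in wild-type cells in 10% serum, 47.9% ± 4.22 in 0.1% serum, and 60.0% ± 1.10 and 57.4% ± 3.82 in ΔLEO1 cells. Over both sera its share was 6.29 points higher in ΔLEO1 cells (exact permutation p = 0.005, adjusted p = 0.025). TPM1 made up 9.64%, 7.54%, 7.83% and 5.17% in the same order of groups, with a ΔLEO1 mean of 6.50% against 8.59% over both sera and a mean of 6.36% in 0.1% serum against 8.73% in 10% serum (exact permutation p = 0.005 and adjusted p = 0.025 for both). Leaving out 1 library ended the TPM2 call for libraries 1, 2, 3, 10, 11 and 12 (6.44, 6.36, 6.06, 7.01, 6.65 and 5.2 points, adjusted p from 0.05 to 0.0667, exact permutation test), while the serum difference of TPM2 passed without library 12 alone (-6.93). It ended the TPM1 call between genotypes for libraries 1 to 4 and 10 to 12 (-2.28 to -1.75 points, adjusted p from 0.0562 to 0.1) and that between sera for libraries 1, 2, 3 and 9 (-2.56 to -1.95 points, adjusted p 0.0562 or 0.0643). Reads of TPM1 are less certain, as 19.1% of its 58-base stretches occur in other transcripts, TPM1-AS first. CNN1, as a share of the 3 calponins, differed by 0.126 points between the genotypes (exact permutation p = 0.875), with the opposite sign without library 6, 7, 8 or 12. Its difference of 0.1% minus 10% serum was -3.88 points (exact permutation p = 0.015, adjusted p = 0.0563) and passed without library 12 (-4.41, adjusted p = 0.025).

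**Figure D4:**
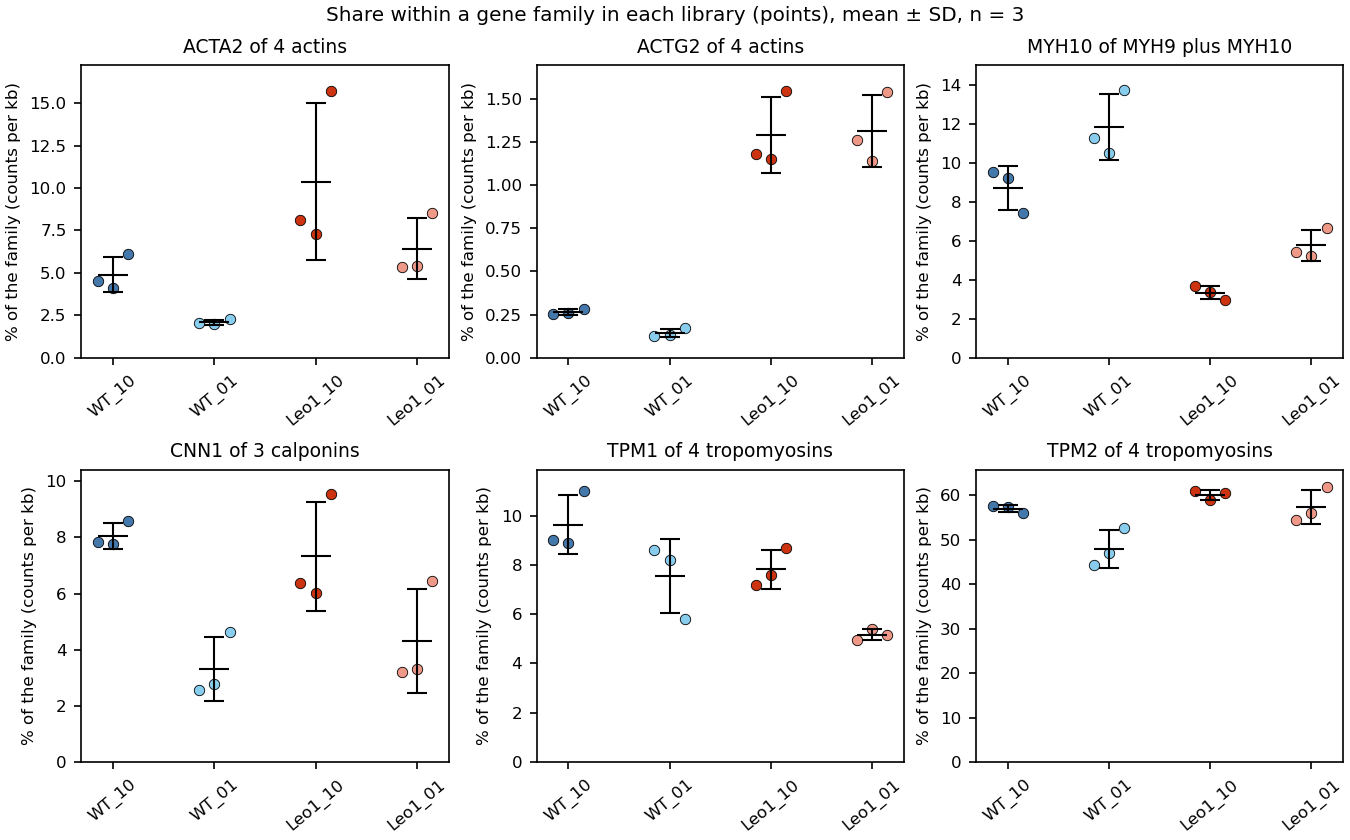
Share of a gene in its family in each library (points), as a percentage of counts per kilobase of exon, with the mean ± SD of the 3 libraries of a group. The MYH10 points of the ΔLEO1 groups (Leo1_10, Leo1_01) reach at most 6.67% while the wild-type points start at 7.43%, and the ACTG2 points of the ΔLEO1 groups start at 1.14% while the wild-type points reach 0.282%.

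Other genes of the pathway are described from 4 fixed lists. They stand beside 27.0% and 36.4% of all tested genes called lower in 0.1% serum in wild-type and ΔLEO1 cells, with medians of -0.97 and -1.05. Of their 87 tested genes 57.5% and 52.9% were called lower. Actin turnover genes (cofilins, profilins, capping proteins, formins and the Arp2/3 complex), 37 tested, had 26 lower and none higher in wild-type cells in 0.1% serum and 24 lower and none higher in ΔLEO1 cells, with medians of -1.36 and -1.27. Actin crosslinkers, 15 tested, had 13 and 10 lower with medians of -1.73 and -1.64. The TGF-β pathway, 17 tested, had 2 and 3 lower and lay above the median gene, at -0.53 and -0.58. Matrix genes of myofibroblasts, 18 tested, had 9 lower in each genotype and 1 and 2 higher, with medians of -1.17 in both. Under TMM scaling the medians of these 4 lists were -0.41, -0.74, 0.42 and -0.13 in wild-type cells, so that the TGF-β list turned positive, and -0.21, -0.57, 0.51 and -0.24 in ΔLEO1 cells.

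Between the genotypes 3 of the 87 genes were called higher and 3 lower in 10% serum (3.45% each, against 3.81% and 4.20% of all tested genes), and 4 higher and 2 lower in 0.1% serum (4.6% and 2.3%, against 3.49% and 3.41%). Under TMM scaling 22 were higher and 16 lower in 10% serum (25.3% and 18.4%, against 17.9% and 21.4%), and 26 higher and 9 lower in 0.1% serum (29.9% and 10.3%, against 15.1% and 17.3%). The lists differed in direction. Actin turnover had 10 higher and 3 lower in 10% serum and 14 and 2 in 0.1% serum, and the crosslinkers 4 and 3, then 6 and 1. The TGF-β list had 3 higher and 6 lower, then 3 and 4, and the matrix list 5 and 4, then 3 and 2. On the ERCC scale EVL, an actin filament elongator of the Ena/VASP family, was the only actin turnover gene called, lower by -2.78 in 10% serum (adjusted p = 5.44e-06, edgeR quasi-likelihood test) and by -1.87 in 0.1% serum. Among the crosslinkers SYNPO2, myopodin, was higher by 1.35 and 1.68. In the TGF-β list TGFB2, a ligand that induces ACTA2 in fibroblasts, was higher by 4.37 (adjusted p = 3.52e-13, edgeR quasi-likelihood test) and 3.21, and LTBP1, which holds latent TGF-β in the matrix, was lower, at -1.70 and -1.72. Of the matrix genes POSTN, periostin, was higher by 5.29 and 3.11, ELN, elastin, was lower in 10% serum (-1.73) and COMP higher in 0.1% serum (2.47). The direction of each of these genes was the same under TMM scaling on the genes, where COMP did not pass (adjusted p = 0.0935, edgeR quasi-likelihood test). No gene of the 4 lists was called in the test of the difference between the serum responses on the ERCC scale, where 0.113% of all tested genes were called higher and 0.0604% lower. Under TMM scaling 3 of the 87 were called higher (3.45%) and none lower, where 1.55% and 0.453% of all genes were.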

How the data were processed

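Poly(A) RNA of 12 libraries with added ERCC transcripts was analysed. Per the labels and the study's methods, the authors demultiplexed the reads with bcl2fastq 2.20.0.422, aligned them to GRCh38 and the ERCC sequences with STAR and counted reads in exons with featureCounts 1.5.1. The labels name STAR 2.7.10a. The annotation release and the strand setting are not given in the sources used here. The deposited files hold raw counts per gene and per ERCC transcript. Of the 60671 gene identifiers 60401 were in a table of gene names and 58453 in GENCODE on GRCh38, which gave exon lengths for TPM.

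Genes with more than 1 CPM in at least 3 libraries were kept. The effective library size was the ERCC total times the TMM factor of the ERCC transcripts (91 of 92 had counts). All 12 libraries entered 1 fit with edgeR 4.0.16 (R 4.3.3, limma 3.58.1) and two-sided quasi-likelihood tests with Benjamini-Hochberg adjustment over 13236 genes, threshold 0.05. The procedure was checked on simulated counts. Family shares were compared with exact permutation tests. Shared sequence was counted as 58-base stretches, the read length, found in transcripts of other genes on either strand. RefSeq promoters were searched for exact CArG boxes. Replicate libraries differed by more than sampling noise (chi-square per gene 3.04 to 144), so none was merged.

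All 34 members were described. Values in every library were given for the actins, TAGLN, CNN1, the SRF group and members called between genotypes. From the pathway lists, up to 2 called genes a direction were named for each knockout comparison. MYH10, MYH9, MYH11 and DES were added after their values were seen. 1 of the pathway lists is not reported here. The members and lists were chosen with earlier results of these data known.

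Alternatives were the likelihood ratio test, DESeq2 1.42.0 with ERCC size factors, ERCC totals without TMM, scaling on the genes by TMM or DESeq2, no filter, filterByExpr, only the groups compared, a threshold of 0.01, each library left out, the highest-numbered library of each group left out or fitted as a covariate, and, chosen after seeing the data, TMM on the genes without those libraries.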

Additional observations from a re-analysis of the deposited data

Results flagged for a closer look

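The response of MYH10 to low serum differed between the genotypes when the libraries were scaled on the genes with TMM. The interaction was 0.863 on the log2 scale (SE 0.154, adjusted p = 0.0172, edgeR quasi-likelihood test), with MYH10 lower by 0.38 in wild-type cells and higher by 0.49 in ΔLEO1 cells in 0.1% serum. On the ERCC scale the same difference was 0.85 (SE 0.66) and did not pass (adjusted p = 1.00 in the same test). Without the highest-numbered library of each group it was 0.09 on the ERCC scale, and 0.78 with TMM. The MYH10 share of MYH9 plus MYH10 was higher in 0.1% than in 10% serum in both genotypes.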

How the results depend on the processing

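No paired analysis was possible because the libraries carry running numbers from 1 to 12 and no number is shared between groups. Each group had 3 libraries, those of ΔLEO1 cells from 1 clone. Few counts limited MYH11, DES and, in 0.1% serum, MYOCD. The likelihood ratio test, DESeq2 with ERCC size factors, ERCC totals without TMM, no filter, filterByExpr and the covariate fit left every count of members called within 1.5 times that reported.

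Scaling set most counts. With TMM on the genes 13 members were lower and 1 higher in the ΔLEO1 serum response, 1 was lower in ΔLEO1 against wild-type cells in 10% serum, 14 were higher in 0.1% serum and 1 was called in the interaction. In the same order 12.1%, 15.5%, 21.4%, 15.1% and 1.55% of all genes were called in these directions. With DESeq2 size factors on the genes the counts of members were 13, 1, 1, 15 and 1, where 1592, 2050, 2763, 2041 and 204 of 13236 genes were called. TMM without the highest-numbered libraries, whose remaining pairs vary little, gave 4 higher in the wild-type serum response, 7 higher in the ΔLEO1 response, 15 higher and 4 lower between genotypes in 10% serum, 25 higher and 2 lower in 0.1% serum and 20 higher in the interaction, where 27.1%, 28.3%, 30.3% and 31.9%, 30.4% and 29.0%, and 15.7% of all genes were called. The ΔLEO1 count of 25 lower was 10 in a fit of only the groups compared, where 523 of 12542 genes were called lower. It was 14 at a threshold of 0.01, where 836 of 13236 genes were.

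Over the 5 comparisons 33 single-gene differences changed sign under TMM (5 in the wild-type and 9 in the ΔLEO1 serum response, 10 and 2 between genotypes in 10% and 0.1% serum, 7 in the interaction), 31 under DESeq2 size factors, 32 on the ERCC scale and 35 with TMM without the highest-numbered libraries, 4 in the covariate fit and 1 with ERCC totals without TMM. The values that follow are those where a call was made with either sign. In the ΔLEO1 serum response TAGLN2 (0.0022), SMTN (0.0119) and MYH10 (0.486) did so under TMM, and TAGLN2 (0.000964), SMTN (0.0108) and MYH10 (0.484) under DESeq2 size factors. TMM without the highest-numbered libraries reversed CNN3 (0.403), SRF (0.584), MRTFA (0.576) and FHL2 (0.45) in the wild-type response, and TAGLN2 (0.16), CNN3 (0.846), SMTN (0.264), LMOD1 (0.107), MYH10 (0.421), SRF (0.748), MRTFA (0.69), FHL2 (0.676), PDLIM7 (0.147) and TGFB1I1 (0.273) in the ΔLEO1 response. It also reversed MYL9 (-0.29) and MRTFB (-0.402) between genotypes in 10% serum, LMOD1 (-0.297) and MYH10 (-0.274) in 0.1% serum, and TAGLN2 (0.335) and CNN2 (0.265) in the interaction. MYL9 (-0.02), MRTFB (-0.14), LMOD1 (-0.71), MYH10 (-0.70), TAGLN2 (-0.36) and CNN2 (-0.45) were negative in the same comparisons on the ERCC scale without those libraries. The cause of the sign changes was not tested.

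Leaving out each library in turn gave 16 to 27 members lower in the wild-type and 5 to 30 in the ΔLEO1 serum response, and 1 to 3 higher between genotypes in 10% serum and 2 to 10 in 0.1% serum. The genes called moved too. In the wild-type response 981 of 13139 genes were lower without library 9 and 6118 of 13196 without library 3. In the ΔLEO1 response 406 of 13193 were lower without library 10 and 11529 of 13174 without library 12. For the shares, in percentage points, ΔLEO1 minus wild type over both sera ran from 3.57 to 5.67 for ACTA2, from -0.432 to 0.452 for CNN1, from -6.08 to -5.27 for MYH10, from -2.53 to -1.75 for TPM1 and from 5.2 to 7.44 for TPM2. Low minus 10% serum ran from -4.14 to -2.04 for ACTA2, from -4.41 to -3.32 for CNN1, from 2.31 to 3.12 for MYH10, from -2.64 to -1.95 for TPM1 and from -7.01 to -4.94 for TPM2, and CNN1 between genotypes in 0.1% serum from -0.0711 to 1.64. Without the highest-numbered library of each group the genotype differences were 3.39 (ACTA2), -0.505 (CNN1, reversed), -5.73 (MYH10), -2.4 (TPM1) and 6.05 (TPM2), and the serum differences 1.67 (MYH10) and -1.38 (TPM1). Without division by exon length the TPM1 genotype difference was -3.4 and did not pass. Without the highest-numbered libraries the smallest p of these tests is larger, so none of those tests could pass.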
